A study of Homo sapiens with 6 samples.

Results

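Genes for secreted airway defence proteins and their regulators were followed through H358 cells with and without a homozygous BRMS1 variant. They are SLPI, WFDC2, LCN2, PAEP, AGR2, SPDEF, PIGR, TFF1 and TFF3, chosen by gene symbol as 9 of the 57445 genes in the count table, and 6 of the 9 passed the filter on low counts. H358 is an established human cell line from a bronchioalveolar lung carcinoma. The 6 RNA libraries were 2 of the parent line, wild type for BRMS1 (WT), 2 of the clone C1 and 2 of the clone C2. Both clones are isogenic to the parental line and carry the BRMS1v2 change A273V on both copies, so no group holds the variant on 1 copy, and each clone is 1 derived line. All cells were grown in RPMI with serum and no group was given a drug. How the clones were derived is not given in the labels, nor is whether a group's replicates came from separate cultures, nor the meaning of the replicate number. The p-values therefore measure only the spread between these libraries, which may be technical.

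Airway lining cells release proteins that keep inhaled microbes and neutrophil enzymes in check. SLPI blocks neutrophil elastase and related proteases, and WFDC2 (HE4) shares its whey acidic protein (WAP) fold. LCN2 starves bacteria of iron by binding their siderophores, and PAEP (glycodelin) is a secreted lipocalin best known from the endometrium. PIGR carries polymeric immunoglobulin across the epithelium, and TFF1 and TFF3 are trefoil peptides released with mucus. AGR2 is a protein disulfide isomerase of the endoplasmic reticulum that mucin folding needs, and SPDEF is an ETS transcription factor that drives goblet cell differentiation. BRMS1 is a subunit of SIN3-HDAC complexes, which repress transcription. The comparisons ask how each clone differed from the parental line in these genes, and whether the clones differed from each other.

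In the clones the level of SLPI was between 10.7 and 17.2 times lower than in WT, PAEP was 7.21 to 8.14 times higher, and LCN2 was 6.82 times higher in C1 and at 2.93 times the WT level in C2, where it missed the threshold. AGR2 and WFDC2, the most abundant of the set, were at 1.05 to 1.22 times the WT level and were not called. SPDEF was high in replicate 2 of both clones and near WT in replicate 1. These folds come from the model with the replicate number as a block, an alternative to the main model, which has no block. In edgeR without the block, PAEP was the one member that passed the test, and only for both clones jointly against WT. DESeq2 without the block called SLPI and PAEP in both clones and LCN2 in C1, and so did edgeR without the block and without the filter on low counts.

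LCN2 and PAEP lie on chromosome 9, and theirs are the promoters shown because these members were the ones above WT in all 4 clone libraries. The sequences are the 250 bases before the RefSeq transcription start, read on the plus strand of GRCh38.p14. They cover chr9:128149203-128149452 for LCN2 and chr9:135561506-135561755 for PAEP. Capitals mark the AP-1 motif TGANTCA, which FOS and JUN dimers bind, and the C/EBP motif TTGCNNAA, each searched on both strands. No capital stretch overlaps another.
LCN2: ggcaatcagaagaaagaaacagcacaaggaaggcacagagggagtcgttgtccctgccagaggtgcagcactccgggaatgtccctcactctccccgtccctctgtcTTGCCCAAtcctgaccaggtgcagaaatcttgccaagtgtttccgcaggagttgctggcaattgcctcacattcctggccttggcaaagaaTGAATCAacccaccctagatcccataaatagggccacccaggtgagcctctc
PAEP: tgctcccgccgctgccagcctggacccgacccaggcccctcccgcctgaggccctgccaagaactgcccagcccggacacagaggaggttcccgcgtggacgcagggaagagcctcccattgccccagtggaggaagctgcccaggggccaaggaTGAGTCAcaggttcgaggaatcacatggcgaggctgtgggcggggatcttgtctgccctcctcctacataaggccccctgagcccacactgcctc
The AP-1 letters of LCN2 stand 52 to 46 bases before the start, and those of PAEP 95 to 89 bases before it. The C/EBP letters of LCN2 stand 143 to 136 bases before the start. Of 35116 RefSeq promoters of this length, 6.57% hold the AP-1 letters and 9.05% the C/EBP letters, so each match is a description and no evidence of binding. AGR2 holds a C/EBP match 165 to 158 bases before its start and no AP-1 match. WFDC2, SPDEF and PIGR hold neither motif in this window. The SPDEF motif CCGGAT, present in 5.85% of promoters, and the TATA box letters TATAAA, present in 10.7%, were in none of the 6 promoters read. SLPI, TFF1 and TFF3 were not matched in the promoter table.

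The libraries held between 27527867 and 37146270 gene counts, and 17129 genes were tested. BRMS1 itself was read at 42.9 and 34.7 CPM (counts scaled to library size) in WT and at 25.2 to 30.0 CPM in the 4 clone libraries, all below WT. This does not check the variant, since counts per gene do not show a point change. Of all genes tested, 11.9% lay below both WT libraries in the 4 clone libraries. The cause of the lower BRMS1 level was not tested. Epithelial markers summed to 5146 to 5579 CPM in WT, 6339 to 7341 in C1 and 6083 to 6433 in C2, all 6 of 6 being tested. Among the 6 neutrophil markers none was tested, ELANE, MPO and S100A8 had no count in any library, and the sum of the list was 0 in WT and at most 0.175 CPM in the clones. The 8 club and alveolar markers, of which 4 were tested, summed to 95.2 to 165 CPM in WT, 125 to 164 in the libraries of C1 and 127 to 148 in those of C2. NKX2-1 gave most of this at 65.1 to 155 CPM, while SCGB1A1 had no count in any library and SFTPB and SFTPC were at most 0.0619 CPM. In the clones together, with the block, NAPSA fell by 0.92 on the log2 scale (edgeR adjusted p = 0.0212) and ABCA3 rose by 0.83 (edgeR adjusted p = 0.0293), and neither was called without the block (0.468 and 0.876). Their part in the members' differences was not tested. In bulk RNA, fewer cells expressing a gene and less RNA per cell cannot be told apart.

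Compared per length of exon, as RPKM (CPM divided by GENCODE 29 exon length in kilobases), the members differed widely in WT. AGR2 led with a mean of 77.8 RPKM, followed by WFDC2 with 21.4 and SLPI with 8.07. PAEP with 1.12 and SPDEF with 1.10 came next and did not differ beyond their spread (± 0.216 and ± 0.118, SD, n = 2). LCN2 stood at 0.404, PIGR at 0.0415, and TFF1 and TFF3 had no count. In the clones PAEP took the third place at 6.73 to 9.74 RPKM, while SLPI lay at 0.190 to 1.04.

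**Figure D1:**
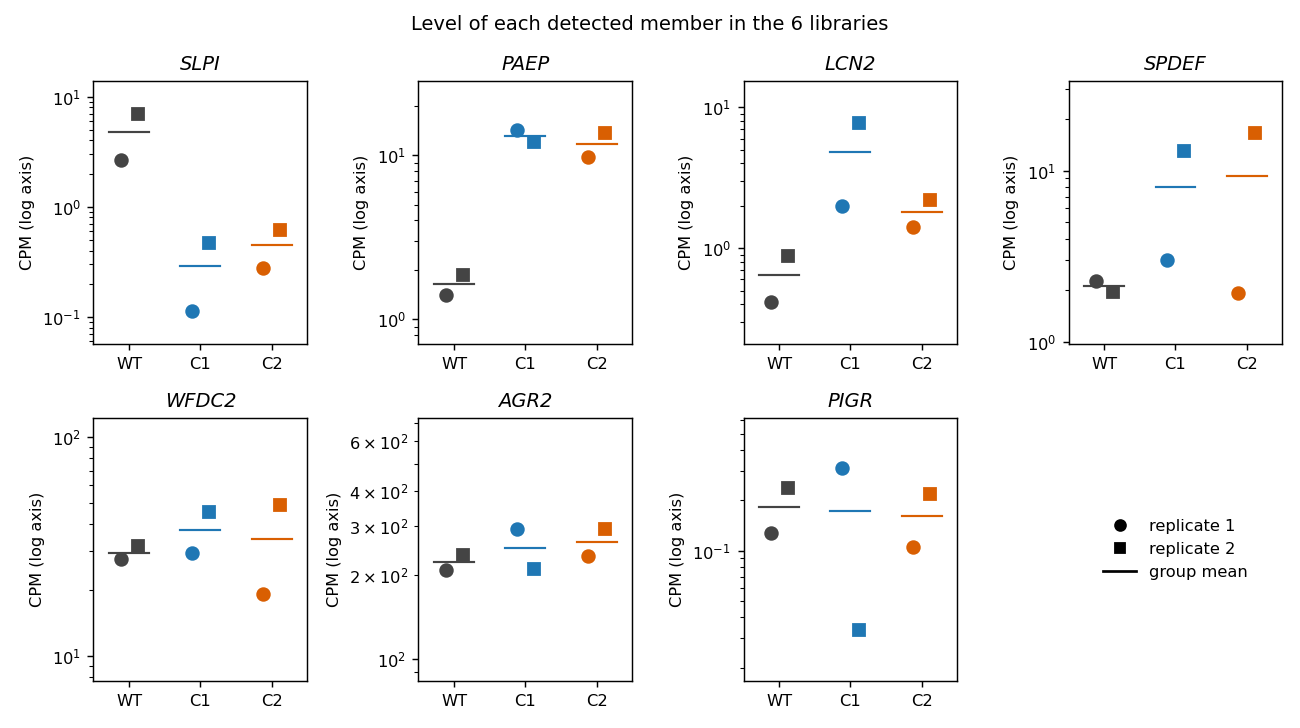
Level of the 7 members with more than 5 counts in all, in CPM on log axes, in each library of WT, C1 and C2. Circles are replicate 1, squares replicate 2 and lines the group means (n = 2). All 4 clone libraries lie below WT for SLPI and above WT for PAEP and LCN2, and SPDEF is high in the replicate 2 libraries of both clones.

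Of the 2 WAP proteins, SLPI fell in the clones in the model with the block and WFDC2 was not called in either model. SLPI was read at 2.69 and 6.93 CPM in WT replicates 1 and 2, at 0.113 and 0.468 CPM in C1, and at 0.281 and 0.619 CPM in C2. The highest clone library was below the lower WT library, so the groups do not overlap. The clone values rest on 4, 14, 8 and 20 counts, against 84 and 206 in WT. WT averaged 4.81 ± 3.0 CPM, C1 0.290 ± 0.251 and C2 0.450 ± 0.239 (SD, n = 2). Without the replicate block the log2 difference was -4.08 in C1 (95% interval -6.12 to -2.04, edgeR adjusted p = 0.258) and -3.41 in C2 (-5.35 to -1.46, edgeR adjusted p = 0.404). With the block SLPI fell by 4.11 in C1 on the log2 scale (SE 0.40, edgeR adjusted p = 5.6e-05) and by 3.41 in C2 (SE 0.38, edgeR adjusted p = 0.000223). Within replicate 1 alone it was 23.8-fold lower in C1 and 9.57-fold lower in C2, and within replicate 2 it was 14.8-fold and 11.2-fold lower. The blocked call in C2 was lost without C2 replicate 1 (edgeR adjusted p = 0.115) or C2 replicate 2 (edgeR adjusted p = 0.206), where the log2 difference ranged from -3.56 to -3.21 over the 6 blocked fits that leave out 1 library each.

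WFDC2, by contrast with SLPI, lay on both sides of WT in the clones, and within the range of WT only in C1 replicate 1. It was read at 27.6 and 31.7 CPM in WT, at 29.5 and 45.3 CPM in C1, and at 19.3 and 48.8 CPM in C2. Replicate 2 of each clone was above both WT libraries, and C2 replicate 1 was below both. The log2 difference with the block was 0.29 in C1 (95% interval -0.26 to 0.83, edgeR adjusted p = 0.560) and 0.07 in C2 (-0.48 to 0.62, edgeR adjusted p = 0.916). The difference in C1 passed the threshold in 1 blocked fit, that without WT replicate 1, at a log2 difference of 0.70 (edgeR adjusted p = 0.0486).

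Of the lipocalins, PAEP passed the test with the block in both clones and LCN2 in C1. PAEP was read at 1.41 and 1.85 CPM in WT, at 14.2 and 12 CPM in C1, and at 9.79 and 13.7 CPM in C2. Every clone library was far above the higher WT library, on 279 to 501 counts against 44 and 55. For the clones together, the log2 difference without the block was 2.93 (SE 0.31, 95% interval 2.18 to 3.68, edgeR adjusted p = 0.0414). By clone it was 3.01 in C1 (edgeR adjusted p = 0.119) and 2.85 in C2 (edgeR adjusted p = 0.150) without the block. With the block PAEP rose by 3.02 in C1 (SE 0.28, edgeR adjusted p = 4.0e-05) and by 2.85 in C2 (SE 0.28, edgeR adjusted p = 8.4e-05). WT averaged 1.63 ± 0.314 CPM, C1 13.1 ± 1.53 and C2 11.8 ± 2.79 (SD, n = 2). The unblocked call for the clones together was lost in all 6 fits that leave out 1 library (edgeR adjusted p = 0.109 to 0.382), with log2 differences of 2.74 to 3.14. The blocked call in C2 was lost without C2 replicate 1 (edgeR adjusted p = 0.0832) or C2 replicate 2 (edgeR adjusted p = 0.160), and over the 6 such blocked fits the log2 difference there was 2.57 to 3.07.

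LCN2 was read at 0.416 and 0.875 CPM in WT, at 1.98 and 7.68 CPM in C1, and at 1.40 and 2.20 CPM in C2. The lowest clone library was above the higher WT library, and C1 replicate 2 was the highest of all. Behind these values stood 13 and 26 counts for WT, with 70 and 230 for C1 and 40 and 71 for C2. With the block LCN2 rose by a log2 difference of 2.77 in C1 (SE 0.39, 95% interval 1.92 to 3.62, edgeR adjusted p = 0.00115). In C2 the blocked difference was 1.55 (SE 0.41, 95% interval 0.66 to 2.44) and missed the threshold (edgeR adjusted p = 0.0516). Without C1 replicate 2 the blocked difference in C1 was 2.09 (edgeR adjusted p = 0.00199). Over the 6 blocked fits that leave out 1 library the difference in C2 was 1.10 to 2.07, and it was called in 3 of them. Without the block the differences were 2.90 (edgeR adjusted p = 0.402) and 1.49 (edgeR adjusted p = 0.830). Where the block was used with DESeq2 the adjusted p for C2 was 0.0480, and with edgeR, the block and no filter on low counts it was 0.00304, both on the other side of the threshold. For the clones together the blocked difference was 2.16 (edgeR adjusted p = 0.00283), and that call was lost without C2 replicate 1 (edgeR adjusted p = 0.0823) or C2 replicate 2 (edgeR adjusted p = 0.0557).

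**Figure D2:**
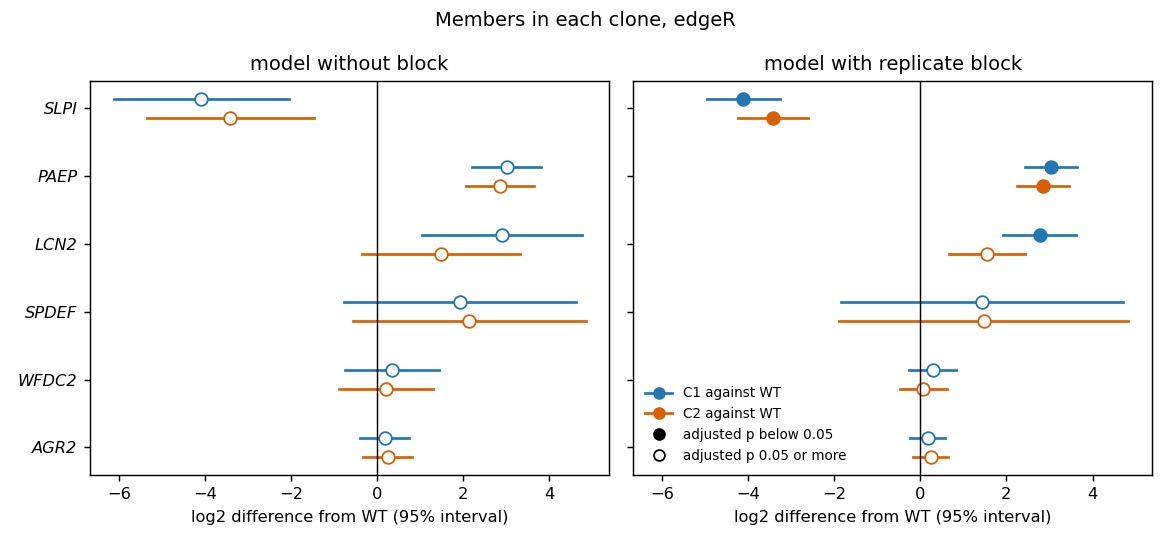
Log2 difference from WT with its 95% interval for the 6 members tested, in C1 and C2, from edgeR without the replicate block (left) and with it (right). Filled points have an adjusted p below 0.05. The estimates of SLPI and PAEP hardly move between the models, from -4.08 to -4.11 and from 3.01 to 3.02 in C1, while their intervals narrow. The estimate of SPDEF in C1 falls from 1.93 to 1.43. Its interval widens, from -0.76 to 4.61 without the block to -1.83 to 4.70 with it.

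AGR2 and SPDEF, the secretory folding enzyme and the goblet cell factor, were not called in either clone in either model. AGR2 was read at 208 and 234 CPM in WT, at 291 and 209 CPM in C1, and at 233 and 292 CPM in C2. The highest library was 1.40 times the lowest, the smallest spread among the members with counts, and the clones overlapped WT. The blocked log2 difference was 0.18 in C1 (95% interval -0.23 to 0.58, edgeR adjusted p = 0.646) and 0.24 in C2 (-0.16 to 0.65, edgeR adjusted p = 0.533).

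SPDEF was read at 2.27 and 1.95 CPM in WT, at 3.0 and 13.1 CPM in C1, and at 1.93 and 16.7 CPM in C2. C2 replicate 1 lay below both WT libraries and C2 replicate 2 was the highest of the 6, so C2 overlapped WT, and C1 did not. The blocked log2 difference was 1.43 in C1 (95% interval -1.83 to 4.70, edgeR adjusted p = 0.548) and 1.47 in C2 (edgeR adjusted p = 0.575). Within replicate 2 SPDEF was 6.71-fold higher in C1 and 8.55-fold higher in C2, and within replicate 1 the folds were 1.32 and 0.850. A model with its own clone difference for each number was added after this pattern was seen, and it has 1 WT library at each number and treats C1 and C2 as its 2 replicates. It put the log2 difference of the clones from WT 2.80 higher in replicate 2 than in replicate 1, which did not pass over all genes (edgeR adjusted p = 0.340). In that model 0 of the 17129 genes were called for the difference between the numbers (0% of the genes tested) and 1533 had an unadjusted p under 0.05. With the block, SPDEF was called in both clones without WT replicate 1, at 2.96 in C1 (edgeR adjusted p = 3.0e-07) and 2.91 in C2 (edgeR adjusted p = 4.0e-07), and without WT replicate 2 the values were 0.15 (edgeR adjusted p = 0.876) and 0.09 (edgeR adjusted p = 0.928).

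**Figure D3:**
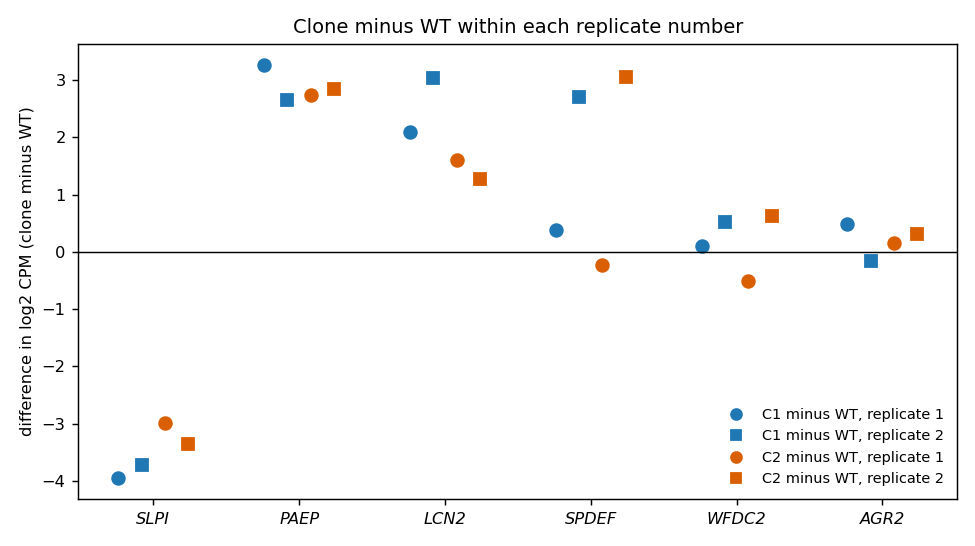
Difference in log2 CPM between each clone library and the WT library of the same replicate number, for the 6 members tested. All 4 points lie below 0 for SLPI and above 0 for PAEP and LCN2, while SPDEF gives 0.39 and -0.23 in replicate 1 and 2.71 and 3.05 in replicate 2.

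The remaining members were at or near 0. For PIGR the WT libraries gave 4 and 7 counts, those of C1 gave 11 and 1, and those of C2 gave 3 and 7. The ratio of its summed counts to those of WT, scaled by summed library size, was 1.02 in C1 (95% exact counting interval 0.411 to 2.55) and 0.912 in C2 (0.347 to 2.36). TFF1 had 0 counts in both WT libraries, 2 and 0 in C1, and 1 and 2 in C2, all below the 3 counts that a count of 0 allows. TFF3 had 0 counts in all 6 libraries, which allows up to 0.0493 CPM in a group. Differences in these trefoil genes were not detectable at this depth.

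Set against all genes, the members' counts read as follows. The members, like the gene lists below, were chosen with earlier results of these data known. A share above that of all genes therefore describes the choice as well and is no evidence about the family. In the model without the block 0 of the 6 members tested were called in C1, where 0.0117% of all genes were, and 0 in C2, where the share was again 0.0117%. At an unadjusted p under 0.05 there were 3 members in C1, beside 7.87% of all genes, and 2 in C2, beside 6.75%. DESeq2 without the block called 3 members in C1, beside 1.58% of all genes, and 2 in C2, beside 1.22%. For the clones together 1 member was called, beside 0.198% of all genes. With the block 3 of 6 members were called in C1 (7.03% of all genes), 2 of 6 in C2 (4.54%) and 3 of 6 for the clones together (9.74%). The members' median log2 difference with the block was 0.86 in C1, and over all genes it was -0.01. The comparisons of C1 and C2 with WT share the WT libraries and are not independent of each other. The libraries of C1 and WT did not overlap for 4 of the 6 members tested, against 35.1% of all genes, and those of C2 and WT for 3 of 6, against 34.8%. For both clones against WT the count was 3 of 6, against 23.8%.

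Between the clones no member was called with or without the block, and 0% of all genes were. Unadjusted p-values under 0.05 numbered 61 genes and 0 members without the block, and 642 genes and 1 member with it, and DESeq2 with the block called 20 genes. That member was LCN2, which was lower in C2 by a log2 difference of -1.22 (95% interval -1.98 to -0.46, edgeR adjusted p = 0.901). The clones' libraries overlapped for 6 of 6 members, and 14.6% of all genes did not overlap. The blocked interval of C2 against C1 ran from -0.35 to 1.75 for SLPI and from -0.70 to 0.35 for PAEP, which leaves room for a difference of either sign.

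Several members also differed by replicate number. SLPI rose in replicate 2 by a log2 difference of 1.43 (95% interval 0.73 to 2.12, edgeR adjusted p = 0.00649), LCN2 by 1.30 (0.63 to 1.97, edgeR adjusted p = 0.00899) and WFDC2 by 0.72 (0.27 to 1.17, edgeR adjusted p = 0.0280). SPDEF had a difference of 1.78 (-0.90 to 4.47, edgeR adjusted p = 0.253), PAEP of 0.19 (edgeR adjusted p = 0.554) and AGR2 of 0.01 (edgeR adjusted p = 0.980). Of all genes 24.7% were called by number, and 12.5% were called as higher in replicate 2, against 3 of the 6 members. None of the 3 members was called without C2 replicate 1 (edgeR adjusted p = 0.0800, 0.0666 and 0.238 for SLPI, LCN2 and WFDC2) or without C2 replicate 2 (0.0809, 0.0689 and 0.245), and LCN2 was not called without C1 replicate 1 (0.110) or C1 replicate 2 (0.143). SLPI was higher in replicate 2 in every group, by 2.58-fold in WT, 4.14-fold in C1 and 2.20-fold in C2, and lower in the clones at either number. All 20 tested proliferation genes had lower values in replicate 2, with a median log2 difference of -2.09, and 5 of them were called. TOP2A, a topoisomerase of dividing cells, stood at 746 CPM in replicate 1 and 365 in replicate 2 of WT, at 841 and 104 in those of C1, and at 950 and 370 in those of C2. The part of growth state in the members' differences was not tested. The median difference of that list from WT was -0.89 in C1 and -0.08 in C2, with 1 gene called in C1 and 0 in C2.

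The other genes of the goblet and secretory programme moved in both directions, all by the blocked model. Of 11 tested genes on a list of 17, 4 rose and 2 fell in the clones together, where 9.74% of all genes were called, with a median log2 difference of 0.36. ST6GALNAC1, which adds sialic acid to mucin sugars, stood at 15.4 and 66.7 CPM in the WT libraries, at 53.0 and 232 in those of C1, and at 35.3 and 168 in those of C2, and rose by 1.53 (edgeR adjusted p = 1.7e-05). CREB3L1, a transcription factor of the secretory pathway, rose by 1.79 (edgeR adjusted p = 0.000121), and the gel-forming mucin MUC5AC by 1.71 (edgeR adjusted p = 0.0338). FOXA3, a forkhead factor of goblet cells, fell by 2.06 (edgeR adjusted p = 0.00373), from 0.640 and 2.29 CPM in WT to between 0.141 and 0.568 CPM in the clones. Its values rest on 5 and 17 counts in C1 and 6 and 15 in C2, against 20 and 68 in WT. By replicate number, 8 of the 11 genes were called as higher in replicate 2 and 0 as lower, beside 12.5% and 12.2% of all genes. None of the named genes was called without the block (edgeR adjusted p = 0.275 to 0.709), nor was any gene of the lists that follow. Goblet markers summed to 37.8 to 86.4 CPM in WT, 86.7 to 112 in C1 and 62.3 to 103 in C2, nearly all from MUC5B and MUC5AC, and their part in the members' differences was not tested.

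**Figure D4:**
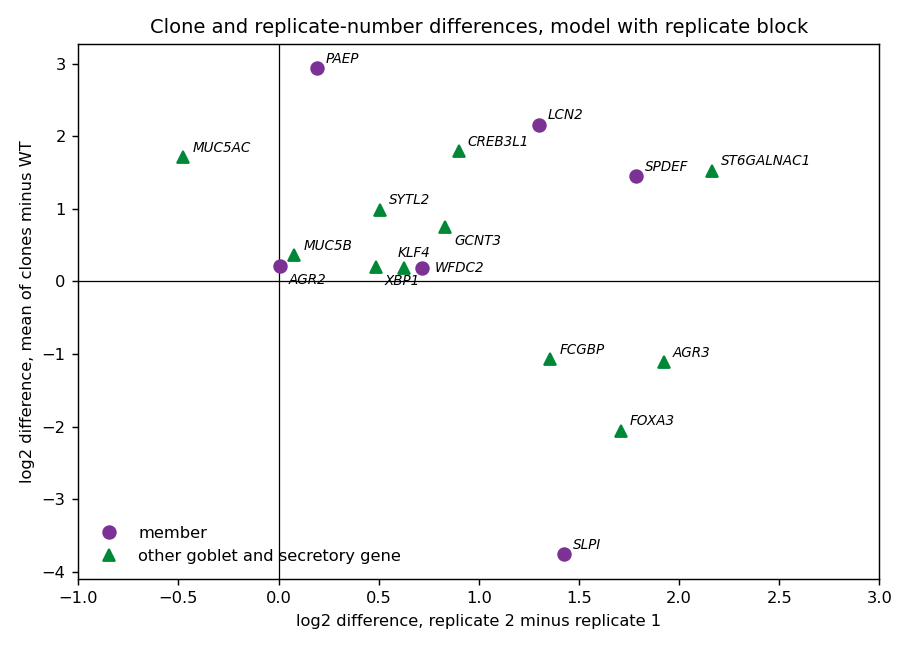
Log2 difference between the clones and WT (vertical axis) against the log2 difference between replicate 2 and replicate 1 (horizontal axis), both from edgeR with the replicate block, for the 6 members tested (circles) and 11 other goblet and secretory genes (triangles). Points lie on both sides of 0 vertically, and 10 of the 11 list genes lie to the right of 0.

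Genes of related families are given by the same blocked model, beside the same 9.74% of all genes. Of the WAP family 4 of 16 genes were tested, and WFDC3, a neighbour of WFDC2 on chromosome 20, rose by 1.19 in the clones together (edgeR adjusted p = 0.00876). No lipocalin beside the members was called among 4 tested of 17, the most abundant being APOD, with a log2 difference of -0.66 (edgeR adjusted p = 0.469), and PTGDS, with 0.02 (edgeR adjusted p = 0.971). Among 13 tested of 28 other secreted airway defence genes, 0 rose and 2 fell. LPO, the airway peroxidase, fell by 2.79 (edgeR adjusted p = 0.00277) from 1.53 and 0.673 CPM in WT to at most 0.424 CPM in the clones. Its values rest on 15 and 1 counts in C1 and 4 and 3 in C2, against 48 and 20 in WT. Complement C3 fell by 1.29 (edgeR adjusted p = 0.00380).

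The next 2 lists are also given for the clones together with the block, where 9.74% of all genes were called. Among regulators of epithelial identity and inflammation, 17 of 18 were tested, 3 rose and 1 fell. FOXA1, a pioneer factor of lung epithelium, rose by 0.62 (edgeR adjusted p = 0.0105), STAT6, which carries interleukin-4 and interleukin-13 signals, by 0.51 (edgeR adjusted p = 0.0403), and the ETS factor ELF3 by 0.51 (edgeR adjusted p = 0.0222). CEBPD, a C/EBP factor of the acute phase response, fell by 0.56 (edgeR adjusted p = 0.0343). Of receptors and binding partners of the members, 10 of 13 were tested and 1 fell, the SLPI-binding membrane protein PLSCR1, by 0.67 (edgeR adjusted p = 0.0108).

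Of the 47 distinct tested genes beside the members, 6 were called for the clones together with the block, which was 12.8%, beside 9.74% of all genes. Of the 6 tested genes nearest to SLPI on chromosome 20, 1 was called, SDC4, with a rise of 0.55 (edgeR adjusted p = 0.0122), and 0 fell, all with the block and for the clones together. None of the 6 nearest to PAEP was called, and their log2 differences lay between 0.16 and 0.68. Near LCN2 1 of 6 was called, DNM1, which fell by 0.87 (edgeR adjusted p = 0.0167). Near WFDC2 WFDC3 rose and DBNDD2 fell by 1.80 (edgeR adjusted p = 0.00773). AGR3, the paralog beside AGR2 on chromosome 7, fell by 1.11 (edgeR adjusted p = 0.0379) while AGR2 was not called. Near SPDEF on chromosome 6, C6orf106 rose by 0.44 (edgeR adjusted p = 0.0364). No gene near PIGR on chromosome 1, or near TFF1 and TFF3 on chromosome 21, was called. Without the block none of these called neighbours passed (edgeR adjusted p = 0.332 to 0.762). Reads that fall in both DBNDD2 and SYS1-DBNDD2, a read-through gene at the same place, may be missing from both as ambiguous. SYS1-DBNDD2 was not called (-0.27, edgeR adjusted p = 0.791), and it is the neighbour that SLPI and WFDC2 share.

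Across the 6 libraries, which share their groups and replicate numbers, some members varied alike. SPDEF and WFDC2 had the highest Pearson correlation of log2 CPM among member pairs, 0.887, LCN2 correlated with PAEP by 0.786 and with SPDEF by 0.735, and SLPI and PAEP had the most negative value, -0.894. Among 278 candidate genes, PAEP was most like CALB2 (0.994) and PRR5L (0.988), and SLPI most like ID2 (0.982) and MRC2 (0.980). LCN2 was most like PSG3 (0.942) and the membrane mucin MUC4 (0.934), SPDEF like ITGB3 (0.937) and CERS4 (0.900), and WFDC2 like CERS4 (0.953) and FAM83E (0.944). For AGR2, which varied least, the nearest candidates were PSG9 at 0.725 and GPA33 at 0.683. Candidates had to vary with an SD of at least 1, so genes that varied as little as AGR2 were left out beforehand. PSG3 and PSG9 belong to a family of near-identical genes, and reads aligned to several copies may be missing from their counts.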

How the data were processed

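Read counts per gene for 6 libraries were taken from the table the authors deposited, which holds raw counts and 5 HTSeq total rows that name no gene. Per the submitters' processing notes, cutadapt 1.6, STAR 2.5.0a, HTSeq 0.5.3 and the build hg19 were used. The strand setting and the annotation release are not given in the sources used here, so sense and antisense reads cannot be separated, though no member overlaps another gene in GENCODE 29. Reads were 50-nt pairs, per the labels' protocols. The total rows were left out of library sizes: reads outside genes made up 9.77% to 10.7% of reads, ambiguous reads 2.62% to 2.84%, reads aligned to several places 6.77% to 7.56%, and 1.24% to 2.27% were unaligned. Counts differed between the 2 replicates by a chi-square per gene of 98.1 in WT, 127 in C1 and 112 in C2, so no library was a copy.

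Counts were fitted with edgeR 4.0.16 (limma 3.58.1, R 4.3.3): filterByExpr over the groups, TMM scaling, all 6 libraries with 1 mean per group, the robust quasi-likelihood F test, with p adjusted by Benjamini-Hochberg over 17129 genes and a call at an adjusted p below 0.05. Standard errors and 95% intervals were derived from the F statistic, and log2 CPM used a prior count of 2. The fit has 3 residual degrees of freedom. The replicate number as a block, DESeq2 1.42.0, its size factors, no filter, and leaving out each library were the alternatives, and the clone difference by replicate number was added after seeing the data. Same-numbered libraries deviated from their group means together, with correlations of 0.584 (WT and C1), 0.634 (WT and C2) and 0.701 (C1 and C2). The replicate number was treated as a pairing only in the blocked model, and the main model has no block. With 2 libraries a group, the deviations of the replicates are mirror images, and the pairing rests on the data alone, as do the blocked calls (2 residual degrees of freedom). The scripts were tested on simulated data.

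Gene lengths, order and overlaps came from GENCODE 29, matched by stable ID for 97.3% of tested genes, on another build than hg19. Promoters came from RefSeq on GRCh38.p14 by symbol, for 6 of 9 members. All 9 members are named. From each gene list, at most 4 genes called for the clones together with the block are named, by size of difference, or, with none called, the 2 most abundant. AGR3 is named as a neighbour. The genes most alike are the 2 of highest Pearson correlation among genes with a mean log2 CPM of at least 2 and an SD of at least 1. Members and lists were chosen with earlier results of these data known. Intervals and floors for counts cover counting error only, with a floor of 3 counts.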

Additional observations from a re-analysis of the deposited data

How the results depend on the processing

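Calls depended on the block, the tool and the filter. With all 6 libraries, the block changed edgeR's call of SLPI, LCN2 and PAEP and of no other member. Genes called in C1 numbered 2 in the main model, 1204 with the block, 296 without the filter, 270 by DESeq2, 1152 by DESeq2 with the block, 1193 with DESeq2's size factors and the block, and 2074 with the block and no filter. Members called in C1 were 0 in the main model and 3 in each of these. In C2 the genes called numbered 2, 777, 209, 209, 845, 760 and 1550 in the same order, and the members 0, 2, 2, 2, 3, 2 and 3. For the clones together they numbered 34, 1669, 436, 393, 1532, 1655 and 2598, and the members 1, 3, 2, 3, 3, 3 and 3. Between the clones 0 genes were called, 20 by DESeq2 with the block and 90 with the block and no filter.

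When each library was left out in turn, the lone library of a group was assumed to vary like the others. Genes called then ranged from 0 to 1 in C1, stayed at 0 in C2, and ranged from 0 to 3 for the clones, with 0 members. With the block they ranged from 190 to 1582 in C1 (3 to 5 members), from 8 to 1734 in C2 (0 to 4 members), from 203 to 2233 for the clones (2 to 4 members) and from 0 to 345 between the clones (0 to 1 member, LCN2 without C1 replicate 1). Genes called by replicate number ranged from 702 to 4624 (0 to 4 members). Without WT replicate 1, SPDEF in both clones (2.96 and 2.91) and WFDC2 in C1 (0.70) were called with the block and not without it, and without WT replicate 2 the blocked values of SPDEF were 0.15 and 0.09.

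Log2 differences that changed sign when a library was left out were those of AGR2 in C1 (-0.20 to 0.52) and C2 (-0.039 to 0.47) and by replicate number (-0.15 to 0.26), of WFDC2 in C1 (-0.073 to 0.70), C2 (-0.65 to 0.72) and the clones (-0.20 to 0.58), and of SPDEF in C2 (-0.16 to 2.99). Between the clones they were AGR2 (-0.28 to 0.43), PAEP (-0.51 to 0.17), SLPI (-0.060 to 2.00), SPDEF (-2.09 to 1.64) and WFDC2 (-0.99 to 0.39). WFDC2 was at -0.18 for the clones in replicate 1 of the model added after seeing the data. The causes were not tested. SLPI, LCN2 and PAEP changed sign against WT in no alternative run. SLPI in the clones, LCN2 in WT, PIGR and the trefoil genes rest on few counts, which limits their precision.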
